A study of Homo sapiens with 8 samples.

Results

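The semaphorins, plexins, neuropilins, netrins, netrin receptors, Slits and Robos form a set of 49 genes in the RNA-seq tables of H9 human embryonic stem cells (hESCs), whose members were taken by gene symbol out of 20344 genes listed in either table. The set holds 20 semaphorins, 11 plexins and neuropilins, 6 netrins, 6 netrin receptors and 6 Slits and Robos. Each table lists 48 of these genes and 47 are in both, since NTN5 was listed only in the ETV4 knockdown table and NTN3 only in the crowding table. ROBO4, which the symbol rule would also take, was not analysed here. H9 is an established hESC line, grown here on Matrigel in mTeSR1 or TeSR-E8 medium. In the first experiment, 2 libraries of H9 cells at low density, labelled small, were set beside 2 libraries of cells crowded by limiting the area to which they could adhere. In the second, 2 libraries of H9 cells with a control hairpin (Ctrl) were set beside 2 libraries with a hairpin against ETV4 (ETV4 KD), an ETS-family transcription factor. The labels do not say which hairpin against ETV4 was sequenced, nor whether the libraries of a group came from separate cultures, so the p-values measure the spread between these libraries, which may be technical. Total counts ran from 50359703 to 62410168 reads per library, and each of the 48 listed genes passed the filter on low counts in its experiment.

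Semaphorins are secreted or membrane-bound ligands that act through plexins, and most of the secreted class need a neuropilin as co-receptor. Netrins attract cells and axons through DCC and repel them through receptors of the UNC5 family, while Slits repel through Robo receptors. The families are best known for steering growing axons, and they also act outside the nervous system on cell adhesion, the actin cytoskeleton, migration and vessel growth.

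The cells had the profile of undifferentiated hESCs. The 9 hESC markers (POU5F1, NANOG, SOX2, LIN28A, TDGF1, DPPA4, L1TD1, DNMT3B and ZFP42) summed to 3540 and 3420 FPKM in the small libraries, 3620 and 3470 in the crowded, 2790 and 3000 in the Ctrl and 3050 and 3090 in the ETV4 KD libraries, and POU5F1 was the most abundant. FPKM are fragments per kilobase of transcript, scaled by the mapped reads of the library. Of the 7 neuron markers 6 were listed and NEUROD1 was not. Their sum was 1.28 and 1.16 FPKM in small against 2.00 and 2.28 in crowded libraries. It was 3.08 and 3.12 in Ctrl against 2.03 and 1.21 in ETV4 KD libraries. DCX was the most abundant by its mean over the 4 libraries of each experiment. In both crowded libraries ELAVL3 was higher (0.834 and 0.93 FPKM, against 0.758 and 0.8 for DCX). STMN2 was higher than DCX in ETV4 KD replicate 1 (0.659 against 0.455 FPKM). In the crowding experiment 5 neuroectoderm markers (PAX6, SOX1, ZIC1, LHX2 and SIX6) summed to 1.39 and 1.06 FPKM in small and 0.346 and 0.412 in crowded libraries, with SIX6 the most abundant. In the knockdown experiment PAX6 and SIX6 were not listed, SOX1 and ZIC1 had too few reads to be tested, and LHX2 had 0.0677 and 0.108 FPKM in Ctrl and 0.0397 and 0.128 in ETV4 KD libraries (log2 fold change -0.09, edgeR adjusted p = 0.937). The 4 listed of 6 mesendoderm markers summed to 1.19 FPKM or less in the crowding experiment, and the 3 listed in the knockdown experiment to 0.7 or less, with MIXL1 the most abundant in both and SOX17 listed in neither.

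Some genes of these lists moved with the conditions, where a gene is said to rise or fall (a call) at an edgeR adjusted p below 0.05 and a log2 fold change beyond the fold threshold of 0.5 either way. Of the hESC markers tested after ETV4 KD 1 of 9 rose (LIN28A) and 2 fell (TDGF1 and DNMT3B), and under crowding the 9 log2 fold changes ran from -0.46 for NANOG to 0.41 for SOX2. Under crowding 1 of 4 neuroectoderm markers rose (SOX1) and 2 fell (LHX2 and SIX6), 1 of 6 neuron markers rose and 1 of 3 mesendoderm markers fell (FOXA2). Of all genes tested 10.7% rose and 5.47% fell under crowding, and 5.88% rose and 7.10% fell after ETV4 KD. The lists are too short for their counts to be set apart from these shares. SOX1 and LHX2 rest on few reads, 3 and 4 in small against 20 and 18 in crowded libraries for SOX1, and 17 and 18 against 6 and 7 for LHX2. The call of SOX1 ended without small replicate 2 (adjusted p = 0.0504), and that of LHX2 ended without any 1 of the 4 libraries (adjusted p from 0.0738 to 0.152). The neuron marker that rose was ELAVL3, a neuronal RNA-binding protein (log2 fold change 2.17, adjusted p = 1.35e-07), while after ETV4 KD 1 of 6 fell, DCX, a microtubule protein of young neurons (-1.95, adjusted p = 0.000529). Of the neural crest list FOXD3 and SOX10 were listed and TFAP2A, TFAP2B and PAX3 were not, with sums of 10.9 and 13.2 FPKM in small, 10.2 and 9.73 in crowded, 4.25 and 4.67 in Ctrl and 4.45 and 5.67 in ETV4 KD libraries. SOX10 rose under crowding (0.64, adjusted p = 0.0175), a call that ended without small replicate 1 (0.0664), small replicate 2 (0.089) or crowded replicate 2 (0.112). Among endothelial markers TEK carried the sum, which went from 3.78 and 3.97 FPKM in small to 1.30 and 1.09 in crowded libraries and from 4.47 and 5.42 in Ctrl to 6.32 and 5.98 in ETV4 KD libraries, while PECAM1 and EMCN were listed in neither table. TEK fell under crowding (-1.75, adjusted p = 1.2e-10) and was at 0.34 (adjusted p = 0.0519) after ETV4 KD. CDH5, the endothelial cadherin, was listed in the knockdown table alone and fell from 19 and 24 reads in Ctrl to 2 and 5 in ETV4 KD libraries (-2.56, adjusted p = 0.0215), a call that ended without Ctrl replicate 2 (0.0565) or ETV4 KD replicate 1 (0.0563). The mesenchymal sum, most of it COL1A1, went from 30.6 and 29.6 to 22.3 and 21.7 FPKM under crowding and from 24.1 and 25.1 to 47.0 and 44.4 after ETV4 KD, with LUM not listed. COL1A1 was at -0.44 (adjusted p = 3.75e-06) under crowding, inside the fold threshold, and rose after ETV4 KD (1.00, adjusted p = 0.000205). PDGFRB, a receptor of platelet-derived growth factor, fell under crowding (-1.58, adjusted p = 1.11e-09) and after ETV4 KD (-0.54, adjusted p = 0.0226), the latter a call that ended without Ctrl replicate 1 (0.0839), Ctrl replicate 2 (0.0728) or ETV4 KD replicate 2 (a log2 fold change of -0.41). The part of these cells or genes in the results that follow was not tested. In bulk RNA, fewer cells of a type and less RNA per cell cannot be told apart.

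H9 cells expressed part of this guidance repertoire. Between 27 and 31 of the listed genes were above 1 FPKM in each library, and 8 to 11 were above 10 FPKM. Such levels were not particular to the set. Of the 18679 genes in both tables, 12687 had a higher mean over the 8 libraries than SEMA4F (1.14 FPKM). A higher mean than that of SEMA4D (10.7 FPKM) was found in 5350. SEMA6A, a transmembrane semaphorin that signals through plexin A receptors (NCBI gene 57556, GRCh37 chr5:115779251-115910519, minus strand), stood far above the rest with a mean of 82.5 FPKM over the 8 libraries, and 684 of the 18679 genes in both tables had a higher mean. It supplied 31.5% and 30.6% of the summed FPKM of the set in the small libraries, 26.5% and 28.7% in the crowded, 31.9% and 30.5% in the Ctrl and 18.4% and 15.3% in the ETV4 KD libraries.

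**Figure D1:**
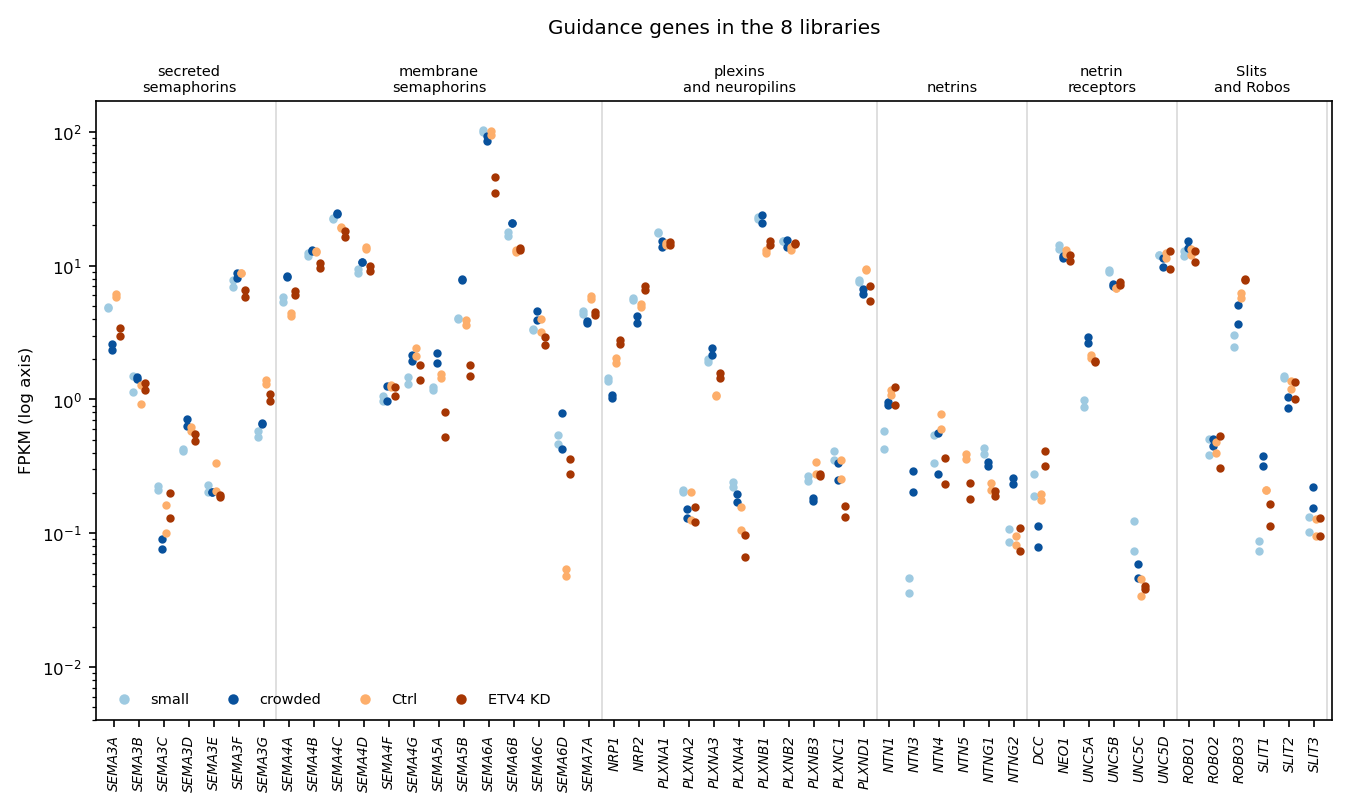
FPKM (log axis) of each guidance gene in the 8 libraries, grouped by role, with a point per library coloured by group (2 small, 2 crowded, 2 Ctrl and 2 ETV4 KD libraries). SEMA6A is the most abundant member in every library, between 35.0 and 104 FPKM, and UNC5C is the least abundant by its mean of 0.0575 FPKM among the 47 genes of both tables.

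Next in order by mean over the 8 libraries came SEMA4C at 21.0 FPKM (16.5 to 24.8), PLXNB1 at 18.2 (12.4 to 24.1), SEMA6B at 16.1 (12.7 to 21.0), PLXNA1 at 15.4 (13.8 to 17.8) and PLXNB2 at 14.6 (13.1 to 15.5). These ranges overlap from each gene to the next, so their order is not set apart by the spread over libraries. Plexin B1 and B2 are receptors of class 4 semaphorins, and plexin A1 serves secreted and class 6 semaphorins. ROBO1, a Slit receptor, and NEO1, a receptor of netrins and of RGM proteins, followed at 12.8 FPKM (10.6 to 15.3) and 12.4 FPKM (10.8 to 14.2). The classical netrin receptor DCC (0.221 FPKM, 0.0796 to 0.412) and the classical ligand NTN1 (0.909 FPKM, 0.424 to 1.24) were far lower, as was SLIT2 (1.23 FPKM, 0.860 to 1.5). Of the neuropilins, NRP2 (5.37 FPKM, 3.72 to 7) lay above NRP1 (1.78 FPKM, 1.02 to 2.80) with ranges that did not overlap.

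Of the 48 guidance genes, 11 rose and 8 fell under crowding. A gene was called where the adjusted p of edgeR's quasi-likelihood test, adjusted by Benjamini-Hochberg over all genes tested, was below 0.05 and the absolute log2 fold change over 0.5. The 11 that rose are 22.9% of the set, against 10.7% of all 17672 genes tested, and the 8 that fell are 16.7%, against 5.47%. The median log2 fold change of the set was 0.06 and that of all genes 0, while the median absolute change was 0.37 in the set and 0.24 over all genes. After ETV4 KD 3 of 48 rose and 9 fell, which is 6.25% against 5.88% of all 17879 genes tested and 18.8% against 7.10%. The set then had a median of -0.14, with 0 for all genes, and a median absolute change of 0.36 against 0.25. The counts after ETV4 KD moved with single libraries, to 1 that rose without Ctrl replicate 1, 5 that rose without ETV4 KD replicate 1 and 5 that fell without ETV4 KD replicate 2. No test was run on the set itself, which was chosen with earlier results of these data known.

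The genes with the widest movements include DCC, SEMA5A, SLIT1 and UNC5A, each changed by more than 1 on the log2 scale in at least 1 experiment. Their promoters are shown because ETV4 is an ETS factor, a family that binds DNA around the core letters GGAA, and because these genes moved in 1 or both experiments. The bases before the transcript start come from RefSeq (GRCh38.p14) and each was found once on its chromosome in GRCh37, which gives the positions. Capitals mark GGAA or its reverse complement TTCC. The genes were those called with an absolute log2 fold change over 1 that have a lone promoter window in the table. For UNC5A only the 210 of 250 bases that lie outside its annotated exon are printed.
DCC (GRCh37 chr18:49866317-49866566, plus strand): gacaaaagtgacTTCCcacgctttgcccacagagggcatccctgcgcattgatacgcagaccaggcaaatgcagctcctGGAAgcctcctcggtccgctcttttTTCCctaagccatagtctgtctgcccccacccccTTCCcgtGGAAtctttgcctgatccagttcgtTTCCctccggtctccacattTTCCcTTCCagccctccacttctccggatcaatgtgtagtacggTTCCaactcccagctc
SEMA5A (GRCh37 chr5:9546188-9546437, minus strand): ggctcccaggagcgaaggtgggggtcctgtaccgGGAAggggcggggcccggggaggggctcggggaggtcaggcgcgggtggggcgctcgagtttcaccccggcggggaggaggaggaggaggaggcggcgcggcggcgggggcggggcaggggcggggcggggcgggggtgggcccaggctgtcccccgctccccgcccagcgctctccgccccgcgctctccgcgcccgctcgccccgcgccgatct
SLIT1 (GRCh37 chr10:98945717-98945966, minus strand): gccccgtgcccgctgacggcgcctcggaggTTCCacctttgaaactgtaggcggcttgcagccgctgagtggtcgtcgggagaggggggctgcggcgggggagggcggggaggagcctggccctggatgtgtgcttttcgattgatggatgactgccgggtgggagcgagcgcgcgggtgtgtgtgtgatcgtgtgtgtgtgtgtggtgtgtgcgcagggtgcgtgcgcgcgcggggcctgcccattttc
UNC5A (GRCh37 chr5:176237310-176237519, plus strand): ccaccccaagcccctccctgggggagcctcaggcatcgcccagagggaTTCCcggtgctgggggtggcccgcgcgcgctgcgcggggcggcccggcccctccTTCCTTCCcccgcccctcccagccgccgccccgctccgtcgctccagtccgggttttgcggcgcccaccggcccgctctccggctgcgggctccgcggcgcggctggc

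DCC held 9 matches to the core, UNC5A 3, SEMA5A 1 and SLIT1 1, where the median of all promoter windows is 3. At least 1 match stood in 92.7% of the 35116 windows of 250 bases in the table and in 60 of the 68 windows (88.2%) of the 40 guidance genes that have one. The longer form CCGGAA, which contains the core, was in none of the 4 windows shown, in 5 of the 68 (7.4%) and in 14.5% of all windows, on either strand. The SEMA5A window also overlaps an exon of SNHG18, a non-coding RNA gene on the opposite strand. These matches describe letters in the window and say nothing about binding.

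The secreted semaphorins, which act at a distance, moved in both directions under crowding, where 1 of 7 rose (14.3%, against 10.7% of all genes) and 2 fell (28.6%, against 5.47%). SEMA3A, the founding repellent of the class, had 4.86 and 4.90 FPKM in the small libraries and 2.60 and 2.34 in the crowded ones. Both crowded libraries lay far below both small libraries, and the log2 fold change was -1.04 (SE 0.07, adjusted p = 1.28e-09). SEMA3C, which binds both neuropilins, fell by 1.43 on the log2 scale (SE 0.31, adjusted p = 0.000933) at a low level, with 0.225 and 0.211 FPKM in small and 0.0759 and 0.0899 in crowded libraries. SEMA3D rose from 0.425 and 0.415 to 0.638 and 0.717 FPKM (log2 fold change 0.64, SE 0.17, adjusted p = 0.00627). The groups did not overlap for either gene. SEMA3F, the most abundant of the class and a ligand of neuropilin-2, was at 6.97 and 7.88 FPKM in small and 8.04 and 8.78 in crowded libraries, a log2 fold change of 0.12 (adjusted p = 0.216), and SEMA3B, SEMA3E and SEMA3G had log2 fold changes of 0.27, -0.14 and 0.21 that did not pass either.

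After ETV4 KD 2 of the 7 secreted semaphorins fell (28.6%, against 7.10% of all genes). ETV4 itself, measured first as the target, had 90.8 and 95.1 FPKM in the Ctrl and 45.6 and 40.9 in the ETV4 KD libraries, a log2 fold change of -1.15 (SE 0.07, adjusted p = 0.00016) that left 44.9% of the control level. Under crowding ETV4 went from 73.2 and 72.6 to 54.2 and 53.9 FPKM (log2 fold change -0.49, adjusted p = 9.42e-07), just inside the fold threshold. SEMA3A fell from 6.10 and 5.88 FPKM in Ctrl to 3.40 and 2.98 in ETV4 KD libraries (log2 fold change -0.91, SE 0.09, adjusted p = 0.000873), with no overlap. SEMA3F fell from 8.88 and 8.82 to 6.57 and 5.80 FPKM (-0.51, SE 0.09, adjusted p = 0.00818), a change at the threshold whose call ended without Ctrl replicate 1 (adjusted p = 0.0521) or without ETV4 KD replicate 2 (log2 fold change -0.46). The other 5 secreted semaphorins did not pass, with log2 fold changes from -0.50 for SEMA3E to 0.34 for SEMA3C.

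Of the 13 membrane-bound semaphorins 4 rose under crowding (SEMA4A, SEMA4G, SEMA5A and SEMA5B), and after ETV4 KD 2 rose (SEMA4A and SEMA6D) while 4 fell (SEMA4D, SEMA5A, SEMA5B and SEMA6A). Those that rose under crowding are 30.8% of the class, against 10.7% of all genes tested. After ETV4 KD those that rose are 15.4%, against 5.88%, and those that fell 30.8%, against 7.10%. SEMA5A and SEMA5B carry thrombospondin repeats that set the class 5 semaphorins apart. SEMA5B had 3.98 and 4.09 FPKM in small and 7.84 and 7.96 in crowded libraries, and 3.63 and 3.90 in Ctrl against 1.80 and 1.49 in ETV4 KD libraries. The 2 libraries of each group were close together and no groups overlapped within an experiment. Its log2 fold change was 0.89 (SE 0.07, adjusted p = 6.27e-09) under crowding and -1.18 (SE 0.13, adjusted p = 0.00115) after ETV4 KD.

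SEMA5A (GRCh37 chr5:9035145-9546187, minus strand) had the same pattern at a lower level. It had 1.23 and 1.18 FPKM in small and 1.86 and 2.24 in crowded libraries, then 1.56 and 1.45 in Ctrl and 0.804 and 0.522 in ETV4 KD libraries. Crowded libraries were both higher and ETV4 KD libraries both lower than their controls, with log2 fold changes of 0.71 (SE 0.09, adjusted p = 3.54e-06) and -1.18 (SE 0.18, adjusted p = 0.00429).

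SEMA6A had 104 and 100 FPKM in small and 84.9 and 94.0 in crowded libraries, and 101 and 94.2 FPKM in Ctrl against 46.2 and 35.0 in ETV4 KD libraries. The crowded libraries were lower than the small ones by less than the fold threshold (log2 fold change -0.25, SE 0.05, adjusted p = 0.000776). The ETV4 KD libraries were both far below Ctrl, by -1.27 on the log2 scale (SE 0.11, adjusted p = 0.000618). The summed FPKM of the set was 318 and 309 in Ctrl and 252 and 229 in ETV4 KD libraries, and without SEMA6A it was 217 and 215 against 205 and 194. SEMA6A shares exonic sequence with the antisense genes SEMA6A-AS1 and SEMA6A-AS2, and the sources do not say if strand was used in counting, so reads of the antisense genes could not be separated.

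SEMA6D, a relative of SEMA6A, was the gene of the set with the greatest rise after ETV4 KD. It had 21 and 17 reads (0.0544 and 0.0480 FPKM) in Ctrl and 113 and 135 reads (0.279 and 0.361 FPKM) in ETV4 KD libraries, a log2 fold change of 2.72 (SE 0.31, adjusted p = 0.00145). Both knockdown libraries lay above both controls. Exons of SEMA6D overlap those of LINC01491 on the opposite strand, so its reads are uncertain. In the crowding experiment it had 0.463 and 0.541 FPKM in small and 0.796 and 0.428 in crowded libraries, which overlap (log2 fold change 0.29, adjusted p = 0.392). The levels of the 2 experiments are given side by side and were not tested against each other. Without crowded replicate 2 the change under crowding was 0.68 (adjusted p = 0.00296).

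SEMA4A, a semaphorin also active on immune cells, rose in both experiments by about the threshold. It went from 5.80 and 5.39 to 8.24 and 8.36 FPKM under crowding (log2 fold change 0.50, SE 0.08, adjusted p = 2.95e-05) and from 4.23 and 4.44 to 6 and 6.51 after ETV4 KD (0.52, SE 0.11, adjusted p = 0.0128). The groups did not overlap, but both calls rest on the fold threshold. Without small replicate 2 the first was 0.45, without ETV4 KD replicate 2 the second was 0.45, and without Ctrl replicate 1 the adjusted p of the second was 0.0643. SEMA4G rose under crowding from 1.30 and 1.47 to 1.93 and 2.15 FPKM (0.53, SE 0.13, adjusted p = 0.00209), which became 0.47 without small replicate 1 and 0.48 without crowded replicate 2. After ETV4 KD it had 2.13 and 2.43 FPKM in Ctrl and 1.82 and 1.41 in knockdown libraries, and the change of -0.50 did not pass (adjusted p = 0.0564), though it did without ETV4 KD replicate 1 (-0.69, adjusted p = 0.00685) and with DESeq2 (adjusted p = 0.0297). Exons of SEMA4G overlap those of MRPL43 on the opposite strand, so its reads are uncertain.

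SEMA4D, a ligand of plexin B1, fell after ETV4 KD from 13.8 and 13.3 to 9.99 and 9.06 FPKM (log2 fold change -0.52, SE 0.09, adjusted p = 0.00594), without overlap. Its fold was -0.48 without Ctrl replicate 1 and -0.45 without ETV4 KD replicate 2, inside the threshold. Under crowding it was 0.16 (adjusted p = 0.0502). The other membrane semaphorins SEMA4B, SEMA4C, SEMA4F, SEMA6B, SEMA6C and SEMA7A did not pass in either experiment, with log2 fold changes of -0.29 to 0.30 under crowding and -0.40 to 0.06 after ETV4 KD. The lowest value was that of SEMA7A under crowding and that of SEMA6C after ETV4 KD.

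**Figure D2:**
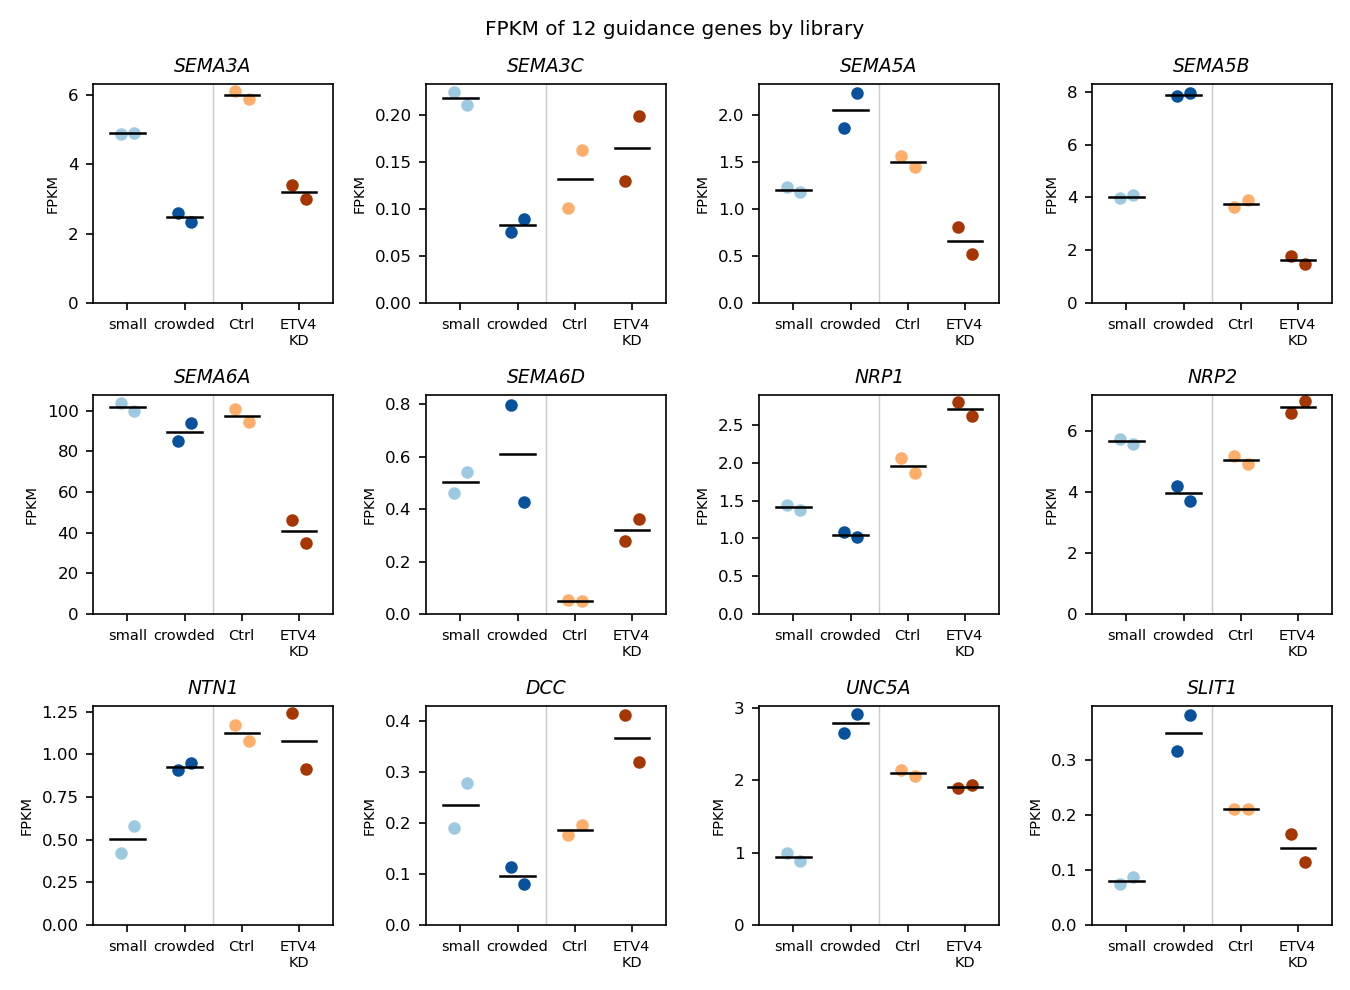
FPKM (linear axis from 0) of 12 guidance genes, with a point per library, a line at the mean of the 2 libraries of a group and a panel per gene. SEMA5A, SEMA5B and DCC move in opposite directions in the 2 experiments, SEMA3A is lower in both, and SEMA6A is lower by more than the fold threshold only in the ETV4 KD libraries.

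Of 11 plexins and neuropilins, the receptors of the semaphorins, 3 fell under crowding (NRP1, NRP2 and PLXNA2), which is 27.3% against 5.47% of all genes tested, and 0 rose. The log2 fold change was below 0 in 10 of the 11, with a median of -0.34, and in 8781 of all 17672 genes tested, with a median of 0. After ETV4 KD it was below 0 in 5 of the 11, with a median of 0.01, and no test was run on the group. NRP2, the receptor of SEMA3F and also a co-receptor of VEGF, had 5.74 and 5.58 FPKM in small and 4.19 and 3.72 in crowded libraries (log2 fold change -0.58, SE 0.08, adjusted p = 4.39e-06). NRP1, the receptor of SEMA3A, had 1.44 and 1.38 FPKM against 1.08 and 1.02 (-0.52, SE 0.13, adjusted p = 0.00385). For both genes the 2 crowded libraries were lower than the 2 small ones. Without small replicate 2 the adjusted p of NRP1 was 0.0868, without crowded replicate 1 its fold was -0.49, and without crowded replicate 2 the fold of NRP2 was -0.48.

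PLXNA2 was a low gene, with 0.205 and 0.212 FPKM in small and 0.130 and 0.152 in crowded libraries (-0.62, SE 0.21, adjusted p = 0.0268). Its call ended without small replicate 1 (adjusted p = 0.102), without small replicate 2 (0.125) and without crowded replicate 1 (0.0974), and with the Wald test of DESeq2 (0.0662). PLXNA1 had 17.6 and 17.8 FPKM against 15.2 and 13.8, a difference of -0.34 (SE 0.06, adjusted p = 0.000132) inside the fold threshold. PLXND1, the receptor of SEMA3E, was likewise at -0.32 (adjusted p = 0.000356). PLXNB1 and PLXNB2 had overlapping groups, and PLXNA3, at 0.17 (adjusted p = 0.106), was the member of the 11 above 0.

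After ETV4 KD the neuropilins were on the other side. NRP2 had 5.19 and 4.93 FPKM in Ctrl and 6.58 and 7 in ETV4 KD libraries, and NRP1 had 2.06 and 1.86 against 2.80 and 2.62. Both knockdown libraries were above both controls for each gene, by 0.43 (SE 0.09, adjusted p = 0.0155) and 0.45 (SE 0.12, adjusted p = 0.0281), just inside the fold threshold. PLXNA3 lay closest to it at 0.50 (adjusted p = 0.0219, not called). Without ETV4 KD replicate 1 both NRP2 (0.51, adjusted p = 0.00147) and PLXNA3 (0.60, adjusted p = 0.0038) passed. PLXND1 fell from 9.44 and 9.31 to 7.02 and 5.42 FPKM (-0.59, SE 0.11, adjusted p = 0.00889), and its fold was -0.44 without ETV4 KD replicate 2. PLXNC1, the receptor of SEMA7A, fell from 0.255 and 0.352 to 0.160 and 0.132 FPKM (-1.04, SE 0.26, adjusted p = 0.0244), a call that ended without Ctrl replicate 2 (adjusted p = 0.172) or ETV4 KD replicate 2 (0.0538). PLXNC1 was at -0.45 (adjusted p = 0.0916) under crowding and passed there without crowded replicate 1 (-0.67, adjusted p = 0.0165). PLXNA4 and PLXNB3 were low in both experiments and did not pass, at -0.22 and -0.59 under crowding and -0.67 and -0.17 after ETV4 KD.

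Of the 5 netrins listed under crowding 3 rose (60.0%, against 10.7% of all genes). NTN1, the classical secreted attractant and repellent, had 0.424 and 0.582 FPKM in small and 0.906 and 0.952 in crowded libraries (log2 fold change 0.83, SE 0.17, adjusted p = 0.000751). NTNG2, a membrane-anchored netrin G that binds LRRC4 and not DCC, had 0.0867 and 0.107 FPKM against 0.232 and 0.257 (1.25, SE 0.31, adjusted p = 0.0027). NTN3 had 6 reads in each small library and 29 and 47 in the crowded ones (2.49, SE 0.49, adjusted p = 3.75e-04). In all 3 genes the crowded libraries were both higher, at levels that stayed under 1 FPKM. NTN4, a netrin that binds laminins, had overlapping groups under crowding (-0.16, adjusted p = 0.72) and fell after ETV4 KD from 0.773 and 0.606 to 0.366 and 0.234 FPKM (-1.17, SE 0.28, adjusted p = 0.0208). The latter call ended without Ctrl replicate 1 (adjusted p = 0.0953). NTN1 had 1.17 and 1.08 FPKM in Ctrl and 1.24 and 0.912 in ETV4 KD libraries, which overlap (-0.07, adjusted p = 0.806). NTN5 at -0.82 (adjusted p = 0.129, SEC1P on the opposite strand) and NTNG1 and NTNG2 at -0.16 and 0.10 did not pass after ETV4 KD, nor did NTNG1 under crowding (-0.41, adjusted p = 0.117).

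Of the 6 netrin receptors 1 rose (16.7%, against 10.7% of all genes) and 2 fell (33.3%, against 5.47%) under crowding. DCC, the receptor of netrin attraction (GRCh37 chr18:49866567-51062269, plus strand, with LINC01917 on the opposite strand), had 112 and 196 reads (0.191 and 0.278 FPKM) in small and 73 and 58 reads (0.114 and 0.0796 FPKM) in crowded libraries. UNC5A, a receptor of netrin repulsion that shares exonic bases with HK3 on the other strand (GRCh37 chr5:176237520-176307899, plus strand), had 0.995 and 0.882 FPKM in small and 2.66 and 2.92 in crowded libraries. Neither gene's groups overlapped, and the log2 fold changes were -1.34 for DCC (SE 0.26, adjusted p = 0.000334) and 1.52 for UNC5A (SE 0.13, adjusted p = 2.43e-08). These are 2 of the genes whose promoters are printed above. UNC5C, the least abundant, fell from 0.123 and 0.0739 to 0.0466 and 0.0591 FPKM (-0.92, SE 0.34, adjusted p = 0.0341). Its call ended without small replicate 1 (adjusted p = 0.425) or crowded replicate 1 (0.0858), with DESeq2 (0.114) and with no filter on low counts (0.0541).

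The abundant netrin receptors were lower in crowded libraries by less than the threshold. UNC5B had 9.04 and 9.25 FPKM in small and 7.28 and 7.11 in crowded libraries (-0.40, SE 0.06, adjusted p = 1.78e-05), NEO1 had 14.2 and 13.3 against 11.8 and 11.4 (-0.31, SE 0.06, adjusted p = 0.000301) and UNC5D 12.1 and 12 against 9.75 and 11.5 (-0.24, SE 0.07, adjusted p = 0.00981). Groups did not overlap in these 3 genes. For UNC5D the log2 fold change ran from -0.36 to -0.12 when each library was left out in turn. After ETV4 KD DCC was the netrin receptor that passed. It had 113 and 117 reads (0.176 and 0.196 FPKM) in Ctrl and 258 and 192 reads (0.412 and 0.320 FPKM) in ETV4 KD libraries, both above both controls, with a log2 fold change of 0.97 (SE 0.21, adjusted p = 0.0147) that lost its call without Ctrl replicate 1 (adjusted p = 0.0547). The other 5 had log2 fold changes from -0.15 for NEO1 to 0.13 for UNC5B.

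Under crowding 2 of 6 Slits and Robos rose (33.3%, against 10.7% of all genes) and 1 fell (16.7%, against 5.47%). SLIT1, a secreted repellent (GRCh37 chr10:98757795-98945716, minus strand), had 35 and 48 reads (0.0743 and 0.0871 FPKM) in small and 158 and 218 reads (0.316 and 0.381 FPKM) in crowded libraries. SLIT2, its paralog, had 1.45 and 1.5 FPKM in small and 0.860 and 1.05 in crowded libraries. The crowded libraries were thus both higher for SLIT1 (log2 fold change 2.03, SE 0.24, adjusted p = 1.57e-06) and both lower for SLIT2 (-0.68, SE 0.11, adjusted p = 9.05e-05). SLIT1 shares exons with the read-through gene ARHGAP19-SLIT1 on the same strand, so its reads are uncertain. SLIT3 did not pass (0.60, adjusted p = 0.0675), except without crowded replicate 1 (0.82, adjusted p = 0.0099).

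ROBO3, a divergent Robo receptor that binds NELL2, rose from 2.47 and 3.05 to 3.67 and 5.08 FPKM (0.62, SE 0.17, adjusted p = 0.00662), a call that ended without small replicate 1 (0.48, adjusted p = 0.0526) or crowded replicate 2 (0.35, adjusted p = 0.109). ROBO1 had 12.8 and 11.9 FPKM in small and 13.6 and 15.3 in crowded libraries, a change of 0.17 (adjusted p = 0.0424) inside the fold threshold, and ROBO2 had overlapping groups (0.08, adjusted p = 0.766). After ETV4 KD no Slit or Robo passed with edgeR, and none with the Wald test of DESeq2. The lowest edgeR adjusted p of the 6 was that of ROBO3 (log2 fold change 0.36, adjusted p = 0.0645). It had 5.78 and 6.30 FPKM in Ctrl and 7.98 and 7.87 in ETV4 KD libraries. SLIT1 was at -0.59 (adjusted p = 0.142), and SLIT2, SLIT3, ROBO1 and ROBO2 had overlapping groups.

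The 2 experiments share no library, so their changes could be set against each other. Of the 47 genes tested in both, 18 were called under crowding and 12 after ETV4 KD, and 5 in both, which is 27.8% of the first and 41.7% of the second. Over all 17206 genes tested in both experiments 678 were called in both, which is 24.3% of the crowding calls and 30.0% of the knockdown calls. SEMA3A fell in both and SEMA4A rose in both, while SEMA5A, SEMA5B and DCC went in opposite directions. Opposite directions were also the more frequent over all genes, at 453 of the 678. The difference between the log2 fold changes, crowding minus knockdown, was tested with edgeR as an interaction over the 8 libraries. It passed, with an absolute difference over 0.5, in 19 of the 47 genes (40.4%), against 27.5% of all 17790 genes tested. It passed with crowding above knockdown in 12 of the 47 genes and with crowding below in 7 of the 47. Over all 17790 genes tested, 2673 (15.0%) passed above and 2217 (12.5%) below.

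The widest such difference was in SLIT1, at 2.61 (SE 0.34, adjusted p = 0.000139). SEMA5B followed among the genes above 0 with 2.06 (SE 0.13, adjusted p = 1.03e-06), then SEMA5A with 1.89 (SE 0.21, adjusted p = 5.17e-05), UNC5A with 1.64 (SE 0.18, adjusted p = 4.48e-05) and SEMA6A with 1.02 (SE 0.13, adjusted p = 0.000138). SEMA4G, NTN1, SEMA3D, SEMA6C, SEMA4D, SEMA3F and SEMA3G also lay above, between 1.02 and 0.60. On the other side SEMA6D was at -2.44 (SE 0.44, adjusted p = 0.0011), DCC at -2.32 (SE 0.35, adjusted p = 0.000368), SEMA3C at -1.77 (SE 0.46, adjusted p = 0.00959), NRP2 at -1.02 (SE 0.12, adjusted p = 8.84e-05) and NRP1 at -0.98 (SE 0.16, adjusted p = 0.000589), with SLIT2 and UNC5B at -0.55 and -0.54. The calls of NTN1, SEMA3D, SEMA3G and SLIT2 ended without 1 or more of the libraries, with adjusted p up to 0.0776, 0.0567, 0.131 and 0.154. For SEMA3A the difference was -0.14 (SE 0.11, adjusted p = 0.368) and for SEMA4A -0.02 (SE 0.12, adjusted p = 0.915), neither past the threshold. NTN4, at 1.01 (SE 0.47, adjusted p = 0.11), passed without crowded replicate 1 (adjusted p = 0.032) or ETV4 KD replicate 1 (0.0403), and NTNG2, at 1.14 (adjusted p = 0.0701), without ETV4 KD replicate 2 (0.0428).

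**Figure D3:**
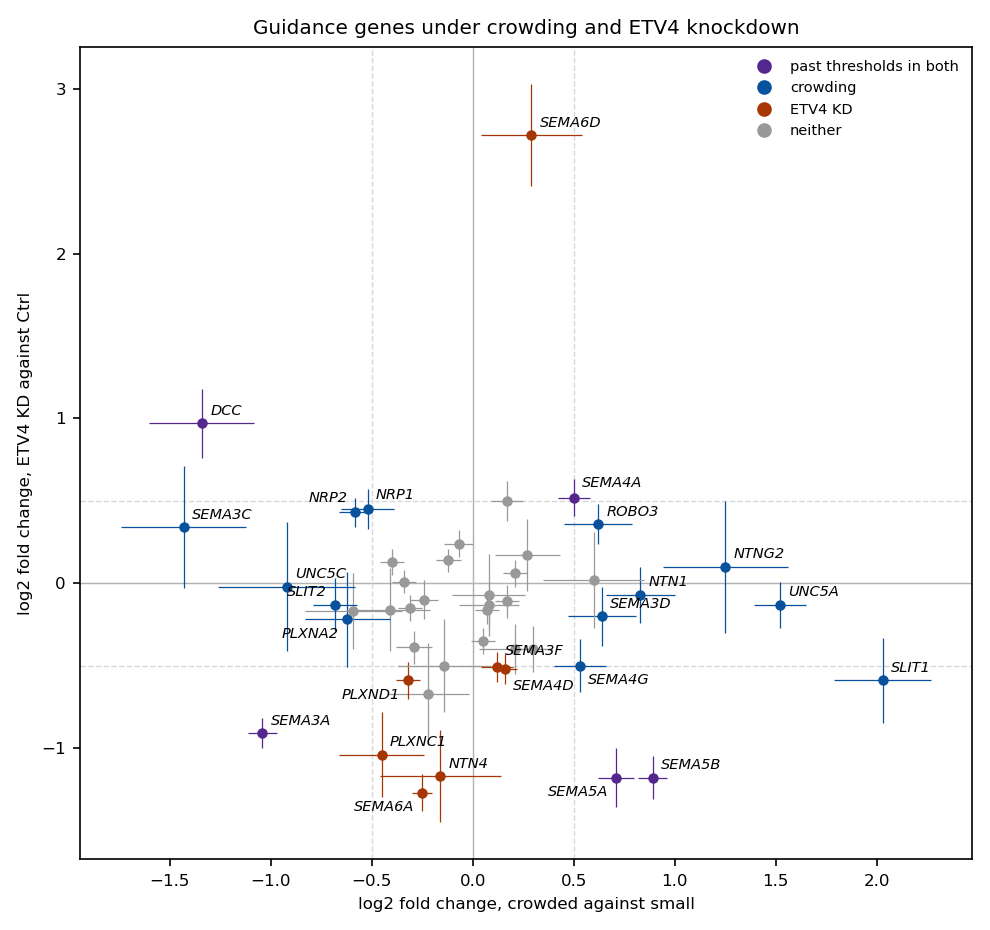
Log2 fold change of each guidance gene listed in both experiments under crowding (x axis) and after ETV4 KD (y axis), with SE bars, thin lines at 0 and dashed lines at the fold threshold of 0.5, coloured by where the gene passed the thresholds. SEMA5A and SEMA5B stand at the lower right, DCC at the upper left, SEMA3A at the lower left and SEMA6D at the top with a knockdown change of 2.72.

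A list of 60 partners of these genes, namely co-receptors, other ligands and cytoplasmic effectors, was read in the same fits. Of 57 listed and tested under crowding 3 rose (5.26%) and 8 fell (14.0%), and of 56 after ETV4 KD 3 rose (5.36%) and 7 fell (12.5%), beside the shares over all genes given for the set. In the crowding experiment FLT1, the VEGF receptor 1, fell from 23.9 and 23.8 to 16.2 and 16.1 FPKM (log2 fold change -0.58, SE 0.06, adjusted p = 8.36e-08). SDC1, a heparan sulphate proteoglycan, fell from 23.2 and 24.1 to 17.2 and 16.2 FPKM (-0.55, SE 0.06, adjusted p = 4.36e-07). MET, a receptor kinase that couples to plexin B1, fell by 0.62 on the log2 scale (adjusted p = 1.08e-05), LRRC4, a binding partner of NTNG2, by 0.71 (adjusted p = 0.00037) and RHOD, a small GTPase that binds plexins, by 0.54 (adjusted p = 0.0175). RND1, another such GTPase, rose from 3.11 and 2.82 to 5.18 and 4.12 FPKM (0.59, SE 0.15, adjusted p = 0.00279). Inside the fold threshold were RND1 without crowded replicate 1 (0.41), RHOD without small replicate 2 (-0.42) or crowded replicate 1 (-0.30), and LRRC4 and SDC1 without crowded replicate 2 (-0.49 and -0.50). The other 5 called genes were below 1 FPKM on average in the experiment: NRCAM and SRGAP3 rose, and CNTN2, DSCAM and TRIM9 fell. The calls of SRGAP3 and DSCAM ended without small replicate 2 (adjusted p = 0.10 and 0.207) and without crowded replicate 1 (0.0709 and 0.207), and that of DSCAM without small replicate 1 (0.127).

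After ETV4 KD the proteoglycan SDC3 fell from 13.4 and 13.6 to 6.81 and 5.44 FPKM (log2 fold change -1.14, SE 0.10, adjusted p = 0.000624). L1CAM, the adhesion molecule of the SEMA3A receptor complex, fell from 9.25 and 8.91 to 5.10 and 4.04 FPKM (-0.99, SE 0.11, adjusted p = 0.00129). For both, the knockdown libraries lay well under the controls. KDR, the VEGF receptor 2, fell by 0.75 (adjusted p = 0.00881), NELL2, the ligand of ROBO3, by 0.74 (adjusted p = 0.00431) and SRGAP2, a Robo effector, by 0.52 (adjusted p = 0.0195). VEGFA, a ligand of neuropilins, rose from 13.3 and 12.2 to 21.1 and 21.2 FPKM (0.78, SE 0.08, adjusted p = 0.00107), and VASP, an actin regulator, from 47.3 and 47.9 to 65.2 and 73.0 FPKM (0.55, SE 0.09, adjusted p = 0.00567). PLXDC1 rose and SRGAP1 and SRGAP3 fell at levels under 1 FPKM. Without ETV4 KD replicate 2 the log2 fold changes of VASP (0.43) and SRGAP2 (-0.35) were inside the threshold, as was that of SRGAP2 without Ctrl replicate 1 (-0.47), and either omission ended the calls of PLXDC1 and SRGAP1. The interaction passed in 18 of 56 partners (32.1%), near the 27.5% of all genes tested, among them SRGAP3 at 1.51 (SE 0.22, adjusted p = 0.000277) and KDR at 1.15 (SE 0.17, adjusted p = 0.000424).

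**Figure D4:**
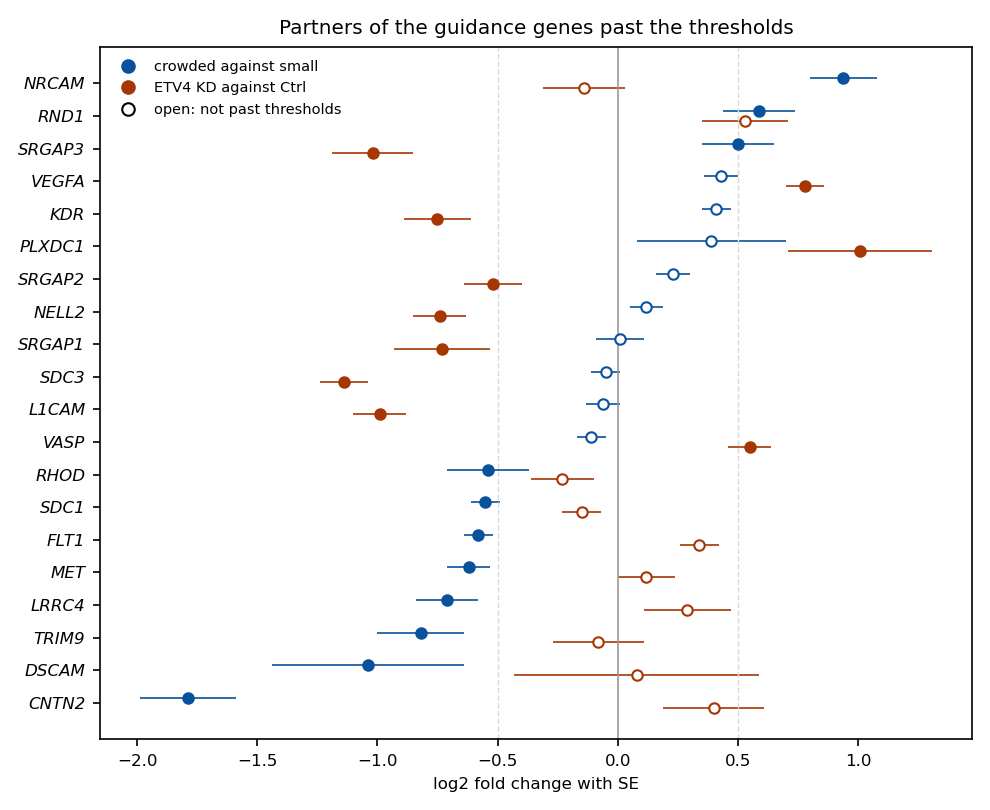
Log2 fold changes with SE of the partner genes that passed the thresholds in at least 1 experiment, under crowding (blue) and after ETV4 KD (brown), where open points did not pass. SRGAP3 is filled on both sides of 0, at 0.50 under crowding and -1.02 after ETV4 KD, and CNTN2 has the lowest value, -1.79 under crowding.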

How the data were processed

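RNA of H9 cells was sequenced in 8 libraries. Libraries were made from poly-A RNA (TruSeq Stranded). The authors trimmed reads with Trimmomatic, mapped them to GRCh37 (hg19) with HISAT2 2.1.0 and quantified known transcripts with StringTie 2.1.3b, per the submitters' processing notes. Whether counting used strand is not given in the sources used here. They deposited 1 table per experiment, with read counts per gene that are not normalised, and FPKM that the authors normalised by transcript length and mapped reads within each library. Every gene in a table has a read in all 4 of its libraries. The tables also hold the authors' fold changes and p-values and 16 further columns of per-sample values, none of which were used.

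Counts were tested within each experiment, 2 libraries against 2, in R 4.3.3 by the quasi-likelihood test of edgeR 4.0.16, with TMM scaling, filterByExpr and robust fitting. The p-values were adjusted by Benjamini-Hochberg over 17672 genes for crowding and 17879 for ETV4 KD. The thresholds were those of the study (adjusted p below 0.05, log2 fold change over 0.5 in size), whose methods name DESeq2. The difference between experiments was tested on counts of the 18679 genes in both tables. An SE is the size of the log2 fold change over the root of its F statistic. FPKM gave levels only. With 2 against 2 a two-sided exact permutation test cannot go below 0.333, so the p-values rest on a spread shared across genes. The biological coefficient of variation was 6.83% for crowding and 9.93% for ETV4 KD. No replicate pair agreed within sampling noise, as the lowest ratio of chi-square to its degrees of freedom was 5.51. Alternatives used limma 3.58.1 and DESeq2 1.42.0. The fits were also run on counts simulated with the same spread for every gene. That setting is simpler than these data, and nothing is concluded from it.

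The genes, partner list and marker lists were chosen with earlier results of these data known. In the neuroectoderm list, 1 marker is not reported here. Every member is named; full values are given for members past the thresholds, and levels for the 6 most abundant and for NRP1, NRP2, DCC, NEO1, NTN1, SLIT2 and ROBO1. Partners past the thresholds with a mean of at least 1 FPKM are described. Gene positions are from GENCODE lifted to GRCh37 and matched 49 members, of which 19 have exons that overlap those of another gene. The called genes SEMA3F, SEMA4D, SEMA5A, NRP1, NRP2, PLXNC1 and UNC5C also have such overlaps on the opposite strand, so their reads are uncertain too. RefSeq promoters (GRCh38.p14) were found for 40 members.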

Additional observations from a re-analysis of the deposited data

How the results depend on the processing

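The alternatives gave 2410 log2 fold changes of guidance genes, ETV4 and the partners and markers already called in the main fits. Of these 2179 kept their side of the thresholds, 219 lost a call in the same direction, 12 gained one and 0 reversed. Partners and markers not called in the main fits were left out, so their gains are not among the 12. Of the 219 losses, 93 came from leaving out a library, 78 from limma on FPKM and 39 from the threshold of 1. The size factors of DESeq2 kept all 19 members called under crowding and all 12 called after ETV4 KD. The Wald test of DESeq2 lost PLXNA2, UNC5C and the partner DSCAM under crowding and added SEMA4G after ETV4 KD, and gave no adjusted p for the markers SOX1 and LHX2 under crowding and CDH5 after ETV4 KD, which are not counted. No filter on low counts lost UNC5C and the partners DSCAM, PLXDC1 and SRGAP1, and a minimum of 10 counts in every library left NTN3 untested. Limma was run on log2(FPKM + pseudocount), a scale that shrinks the changes of low genes and, where filtered at a mean of 0.5 FPKM, tests fewer of them. With a pseudocount of 0.5, 6 members rose and 1 fell under crowding (1717 genes and 4 partners in all), and 0 rose and 5 fell after ETV4 KD. With 0.1 there were 7 and 3 members and 7 partners under crowding, and 1 member rose after ETV4 KD. With 1 there were 3 and 1 members, 1256 genes and 2 partners under crowding, and 0 and 5 members, 1325 genes and 6 partners after ETV4 KD. With 0.5 and no filter there were 6 and 1 members, 1839 genes and 5 partners under crowding, and 1 and 5 members, 1502 genes and 6 partners after ETV4 KD. At an absolute log2 fold change over 1, 4 members rose and 3 fell under crowding (1135 genes, 2 partners), and 1 rose and 5 fell after ETV4 KD (761 genes, 3 partners).

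Leaving out each library in turn gave 9 to 12 members that rose and 6 to 7 that fell under crowding, and 1 to 5 that rose and 5 to 10 that fell after ETV4 KD. After ETV4 KD 1 member rose without Ctrl replicate 1 and 5 without ETV4 KD replicate 1, and 5 fell without ETV4 KD replicate 2. Called genes ranged from 2407 to 3408 under crowding and from 1587 to 3390 after ETV4 KD, partners from 8 to 12 and from 6 to 14 (6 without ETV4 KD replicate 2), and members whose changes differ between experiments from 16 to 19. In these fits the lone library of a group is assumed to vary like the others. The interaction with DESeq2 lost SEMA3G and kept 18 of 19.

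Replicate numbers are shared across groups, and the deviations of same-numbered libraries correlated at -0.04 under crowding and 0.09 after ETV4 KD. The labels do not say if same-numbered libraries were handled together, and a weak correlation cannot settle it. With the replicate number as a block, 11 members rose and 8 fell under crowding, 3 rose and 10 fell after ETV4 KD (SEMA4G added), and 20 differed between experiments (NTN4 added). The block also lost SRGAP3 under crowding, at the fold threshold. After ETV4 KD the block raised the partners called from 10 to 13 and all genes called from 2321 to 2901. The levels under 1 FPKM rest on few reads, which limits how closely NTN3, SEMA3C, SEMA6D, UNC5C and DCC are measured.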
